A study of Rattus norvegicus with 9 samples.

Results

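Transcripts of the cytosolic ribosomal proteins, the protein part of the ribosome that translates nuclear-encoded mRNA, were examined in the retinas of diabetic and control rats. Members were chosen by the form of the gene symbol in the array's annotation, with S6 kinases and binding proteins of similar symbol left out. This gave 65 genes on 66 probes, of which 43 encode proteins of the large subunit and 22 proteins of the small subunit. Tests were limited to probes detected throughout 1 or both groups, with a detection p, which sets the intensity against the negative control beads of the same array, under 0.05. By this filter 59 members were tested, 38 of the large and 21 of the small subunit, among 10261 tested probes of 22226. All 59 were detected on all 9 arrays, so that none entered through 1 group alone. The other 6 genes, Rpl5, Rpl11, Rpl12, Rpl34, Rpl36a and Rps19 (both of its probes), were not detected on every array of either group and have no test.

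The diabetic group (STZ) held 4 male Sprague-Dawley rats given 65 mg/kg streptozotocin, a toxin of the insulin-producing cells of the pancreas, by intraperitoneal injection. The control group (Control) held 5 male rats of the same strain injected with the vehicle, sodium citrate. Blood glucose had to stay above 250 mg/dL for a rat to count as diabetic, retinas were taken 3 months after injection, and each retinal sample was hybridized to 1 RatRef-12 BeadChip array. The model is one of insulin lack. Another diabetic array had been removed by the authors in quality control.

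A ribosome joins a large and a small subunit, each built of ribosomal RNA and many different proteins, most of which are needed in equal number. The small subunit reads the mRNA, and the large subunit joins the amino acids and lets the new chain out through a tunnel. Mammalian ribosomal protein mRNAs start with a run of pyrimidines, the 5′ terminal oligopyrimidine (TOP) tract, through which mTORC1 signaling adjusts their translation together. The array measured the amount of these mRNAs, not their translation or the proteins.

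For 6 members, the bases around the annotated start are printed below, taken from the RefSeq promoter table of the rat genome GRCr8. They are the called members with the smallest adjusted p or the largest differences that had a sequence with a tract (Rpl22, Rpl4, Rpl35 and Rps13), and Rps12 and Rpl22l1 without one. Each line holds 10 bases before the annotated start and 20 bases from it, 5′ to 3′ on the strand that reads like the mRNA. Capitals mark the counted stretch, which begins with a C no more than 5 bases before the annotated start. In Rpl22, Rpl4, Rpl35 and Rps13 lower-case C or T stand directly before it, so the whole run is longer than the capitals. Part of a stretch can lie before the annotated start, and where the mRNA begins was not tested.
Rpl22, chr5:168117951-168117980, + strand: gcgccCCCCTCCCTTTCTgcctcctctgcc
Rpl4, chr8:73566467-73566496, + strand: tcttcCTTTTCCTgtgggagcagccgggta
Rpl35, chr3:43165902-43165931, - strand: cttcctCTTTCTCTCgaaccgggcggcctc
Rps13, chr1:180009641-180009670, - strand: ttcctacctcgttCTCTCTTTgcttccaga
Rps12, chr1:23500065-23500094, + strand: gaagcccagcagagcgcttaaataccgtca
Rpl22l1, chr2:113683186-113683215, + strand: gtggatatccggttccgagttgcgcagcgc

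Only the strand that reads like the mRNA was searched. A tract was counted when a C within 5 bases of the annotated start was followed by at least 4 bases that were each C or T. Of the 65 member genes, 55 had an entry in the table and 32 of these (58.2%) held a tract, against 5704 of all 33469 promoters (17.0%). Among the tested members, a tract stood at the start of 6 of the 9 that rose and had an entry (66.7%), and of 23 of the 40 others (57.5%). Whether a tract was found depends on the annotated start, and its absence says only that these letters were not in this window.

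Array medians of the deposited intensities were 76.9 to 87.9 in the diabetic group and 70.01 to 84.4 in the control group, and 11207 to 11609 probes on diabetic and 10843 to 11524 probes on control arrays had a detection p under 0.05. BeadChip 1, a slide of several arrays, held Control 1 to 3, and BeadChip 2 held STZ 1 to 4 with Control 4 and 5. In the tissue check, all 7 rod marker genes on the array were tested, with summed intensities of 51845 to 54845 on diabetic and 57139 to 59522 on control arrays, which did not overlap. Of these 7 genes 1 was lower in diabetic retina (Nrl), 5 were lower at an unadjusted p under 0.05, and all 7 differences were below 0. For these and the following counts, 4.84% of all tested probes were higher and 4.47% lower at an adjusted p under 0.05 by limma. At an unadjusted p under 0.05 the shares were 10.8% and 14.5%. Lens fibre markers moved with the group. Of 11 such genes tested, 9 were higher in diabetic retina, and their summed intensity was 82789 to 118395 on diabetic arrays and 22879 to 33599 on control arrays. Of 4 Müller glia markers tested 1 was higher (Vim), with sums of 21064 to 23737 on diabetic and 14872 to 16603 on control arrays. At an unadjusted p under 0.05 by limma, 2 of these 4 were higher and 1 was lower, and the differences ran from -0.29 to 0.64. Of 5 markers tested for microglia and macrophages 2 were higher (C1qb and C1qc), with sums of 1597 to 1900 and 1444 to 1722. Summed intensities of red blood cell markers overlapped, at 1454 to 3907 on diabetic and 1934 to 5188 on control arrays, and so did those of extraocular muscle (798 to 871 and 840 to 895) and pigment epithelium (1491 to 2880 and 1877 to 4242). None of the 2 red blood cell and 3 pigment epithelium markers tested had a difference above 0. Of the latter 1 was lower at an unadjusted p under 0.05 by limma, and none passed after adjustment. With the offset no intensity is at 0, and Hba-a2 and Alas2 of red blood cells, Itgam, Ptprc and Cx3cr1 of microglia and Kcnj10 of Müller glia did not pass the detection filter. The part of these cell types in the values of the ribosomal protein transcripts was not tested, and in whole retina a change in RNA per cell and a change in the number of cells of a type cannot be told apart.

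More ribosomal protein transcripts were higher in diabetic than in control retina, by small amounts. Of the 59 tested genes 12 rose and 1 fell at an adjusted p under 0.05 by limma's moderated test, and 46 did not pass. Among all 10261 tested probes 956 passed (9.32%), of which 497 were higher (4.84%) and 459 lower (4.47%) in diabetic retina. The median log2 difference of the 59 genes, diabetic minus control, was 0.14 (1.10-fold), against -0.01 over all tested probes. It was above 0 for 46 members (78.0%), and above 0 for 42.2% of all tested probes. Rpl22, Rpl4, Rpl39, Rps3 and Rps6 passed in all 9 fits that left out 1 array, Rps20 in 6, and Rpl7, Rpl35, Rpl37l1, Rpl22l1, Rps13, Rps4x and Rps12 in 1 to 4. Thus 13 members passed with all arrays but 8 without STZ 1, 5 without STZ 3, 6 without Control 3, 6 without Control 4 and 5 without Control 5. When arrays were scaled to a common median without quantile normalization no member passed, with 16 higher and 1 lower at an unadjusted p under 0.05, and the median difference was 0.20. For this scaling the share of all tested probes at that unadjusted p is not given.

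Both subunits showed this direction. In the large subunit 6 of 38 genes rose, 1 fell and 31 did not pass, with a median difference of 0.13 (1.10-fold) and 29 differences above 0. In the small subunit 6 of 21 rose, none fell and 15 did not pass, with a median of 0.16 (1.11-fold) and 17 differences above 0. No member of the small subunit had an unadjusted p under 0.05 in the lower direction, nor passed there with the methods' t-test. The difference between the subunits was not tested. Diabetic and control values did not overlap for 15 members, 8 large and 7 small, all of them higher in diabetic retina. Over all tested probes 6.6% were higher and 6.41% lower in this way. At the thresholds of the study's methods, 1.2-fold or more with an unadjusted p below 0.05, 15 members were higher and 1 was lower, against 5.58% and 4.45% of all tested probes.

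**Figure D1:**
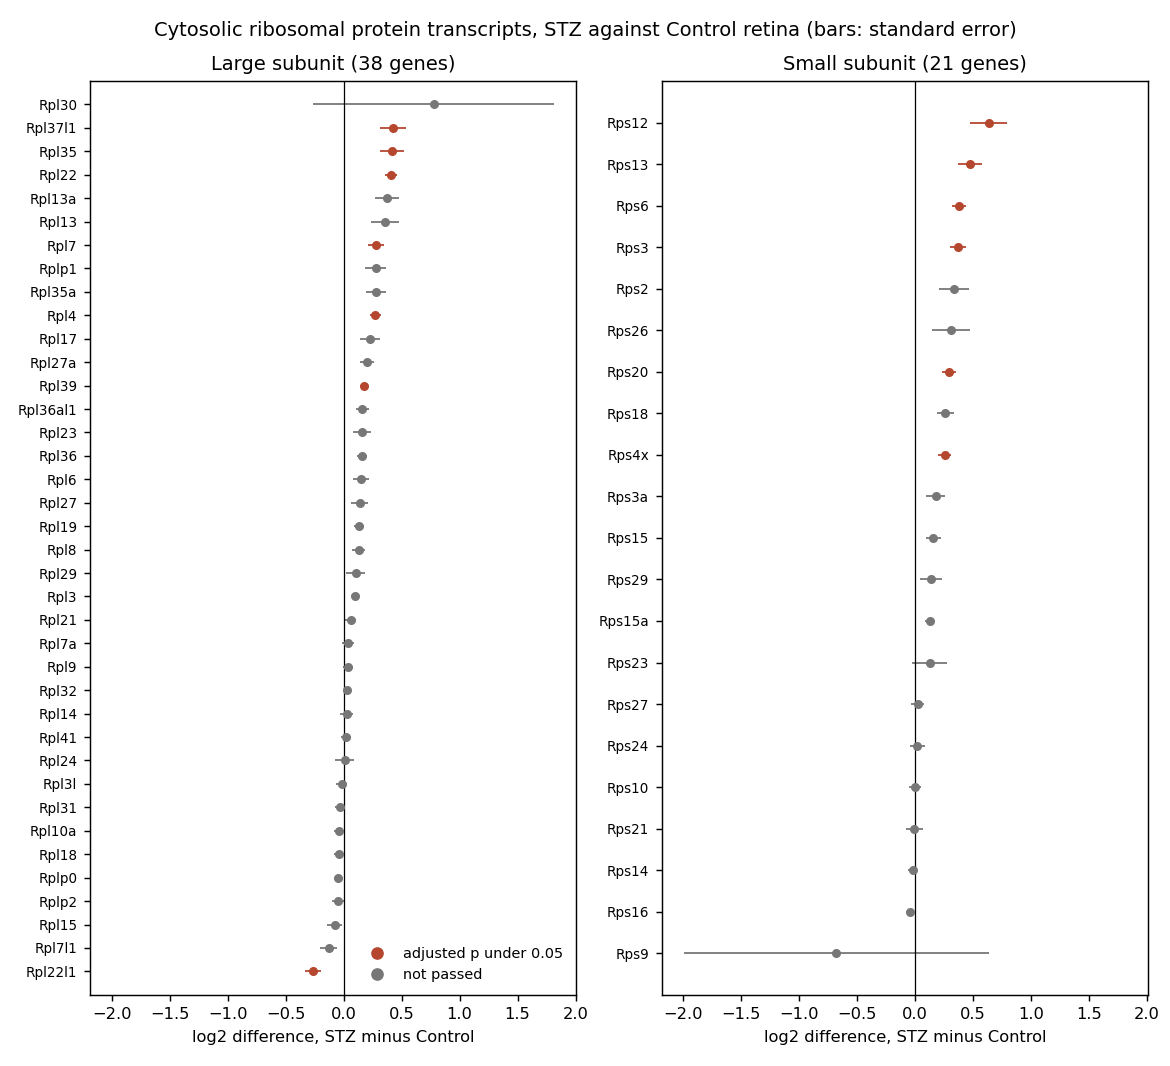
The log2 difference in normalized intensity, diabetic (STZ) minus control, is on the horizontal axis for each of the 38 large subunit (left) and 21 small subunit genes (right), with bars for the standard error and red points where the adjusted p was under 0.05. Most points lie right of 0, and Rpl30 and Rps9 have much wider bars than the other members.

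The same differences were also read array by array. For each array the median over the 59 genes of the log2 difference from the control mean was taken. This centers the control arrays near 0 by construction, so the array medians are a description and no further test. It was 0.11, 0.12, 0.18 and 0.08 in STZ 1 to 4, and 0.03, 0.01, 0.03, 0.01 and -0.06 in Control 1 to 5. Every diabetic array lay above every control array, with STZ 4 and Control 1 the nearest pair and Control 5 apart from the other controls at the low end. STZ 1 to 4 had 40, 49, 48 and 42 of 59 members above the control mean, while Control 1 to 4 had 32, 34, 39 and 32 and Control 5 had 12. Control 5 held the lowest control value for 23 members, and STZ 3 the highest diabetic value for 21.

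BeadChip 2 held 2 control arrays beside the 4 diabetic ones. Within it the median difference was 0.16 for the large and 0.26 for the small subunit, with 47 of 59 members above 0. The median over all tested probes was -0.01. These controls were Control 4 and Control 5, with member medians of 0.01 and -0.06 from the mean of all controls. The part of Control 5 in the within-chip medians was not tested. With BeadChip as a block, 3 members passed, all higher (Rpl22, Rps3 and Rps6), among 179 probes in all. Within BeadChip 2 alone none of the 59 members passed limma's test, with 25 higher and 1 lower at an unadjusted p under 0.05, and 11 probes passed in all. The share of all tested probes at that unadjusted p is not given for this fit.

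Some large subunit members lie around the exit tunnel. Of 7 tunnel proteins tested, Rpl22, Rpl4, Rpl39 and Rpl35 rose and 3 did not pass, with a median difference of 0.23. Among all 59 members 12 rose, and among all tested probes 4.84% were higher. Whether tunnel proteins differed from the other members was not tested. Rpl22, an RNA-binding protein on the outer face of the subunit, had the smallest adjusted p of all members. Its log2 values were 12.46, 12.45, 12.61 and 12.36 in STZ 1 to 4, and 12.02, 12.16, 12.02, 12.06 and 12.06 in Control 1 to 5. All diabetic values stood clear of the control values, and the difference was 0.41 ± 0.05 (SE, 1.33-fold, adjusted p = 0.00412).

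Rpl4, which forms part of the narrow site of the tunnel wall, measured 13.70, 13.62, 13.66 and 13.60 in STZ 1 to 4, and 13.34, 13.45, 13.38, 13.24 and 13.45 in Control 1 to 5. The groups did not overlap, and the difference was 0.27 ± 0.05 (SE, adjusted p = 0.0125). Rpl39, a very small protein that lines the tunnel nearer the exit, measured 12.66, 12.62, 12.76 and 12.69 in STZ 1 to 4, and 12.50, 12.56, 12.45, 12.52 and 12.47 in Control 1 to 5. The shift was small, 0.18 ± 0.04 (SE, 1.13-fold, adjusted p = 0.0183), but so was the spread within each group. Rpl35, at the exit where the signal recognition particle docks, measured 12.76, 12.56, 12.47 and 12.39 in STZ 1 to 4, and 12.29, 12.01, 12.25, 12.21 and 11.87 in Control 1 to 5. The lowest diabetic array stood just above the highest control array, and the difference was 0.42 ± 0.10 (SE, adjusted p = 0.0432).

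Among the other large subunit proteins, Rpl7, an RNA-binding protein of the subunit, averaged 11.93 ± 0.11 in diabetic and 11.65 ± 0.11 in control retina (SD, n = 4 and 5, difference 0.28, adjusted p = 0.0369). Rpl37l1, for which RefSeq lists Rpl37 as another name, had log2 values of 10.23, 10.30, 10.63 and 10.27 in STZ 1 to 4, and 10.20, 9.78, 9.92, 9.97 and 9.78 in Control 1 to 5. STZ 1 and Control 1 nearly met, and the difference was 0.43 ± 0.11 (SE, adjusted p = 0.0457). Rpl13a, known outside the ribosome as part of an inhibitor of translation in the interferon response, fell just outside the threshold, with 10.99 ± 0.16 in diabetic and 10.61 ± 0.17 in control retina (SD, adjusted p = 0.0533).

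In the small subunit, Rps6 is the substrate of the S6 kinases downstream of mTORC1. Its log2 values were 12.97, 12.86, 13.08 and 12.81 in STZ 1 to 4, and 12.61, 12.63, 12.56, 12.54 and 12.41 in Control 1 to 5. The groups were apart, with a difference of 0.38 ± 0.06 (SE, 1.30-fold, adjusted p = 0.0112). The array does not measure phosphorylation of the protein.

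Of 8 proteins of the small subunit's head that were tested, Rps3, Rps20 and Rps12 rose and 5 did not pass, with a median difference of 0.21. Beside these stand 12 of all 59 members and 4.84% of all tested probes. Whether head proteins differed from the other members was not tested. Rps3, at the mRNA entry and also known as a DNA repair protein, measured 12.55, 12.76, 12.57 and 12.54 in STZ 1 to 4, and 12.19, 12.38, 12.31, 12.17 and 12.13 in Control 1 to 5. No control array reached the lowest diabetic array, and the difference was 0.37 ± 0.07 (SE, adjusted p = 0.0138). Rps20, its neighbour in the head, averaged 12.68 ± 0.07 in diabetic and 12.39 ± 0.11 in control retina (SD, n = 4 and 5, adjusted p = 0.0253).

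Rps12 had the largest difference among the members that passed, 0.64 ± 0.16 (SE, 1.55-fold, adjusted p = 0.0436). It measured 9.96, 9.97, 10.00 and 10.02 in STZ 1 to 4, and 9.81, 8.98, 9.52, 9.42 and 9.04 in Control 1 to 5. The 4 diabetic values were nearly the same, while the control values covered 0.83 and the highest of them came close to the diabetic group. Rps13, at the body of the subunit near the contact with the large subunit, measured 11.37, 11.19, 11.63 and 11.33 in STZ 1 to 4, and 11.14, 10.84, 10.77, 10.99 and 10.78 in Control 1 to 5. The difference was 0.48 ± 0.10 (SE, adjusted p = 0.0265), and STZ 2 stood close to Control 1.

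**Figure D2:**
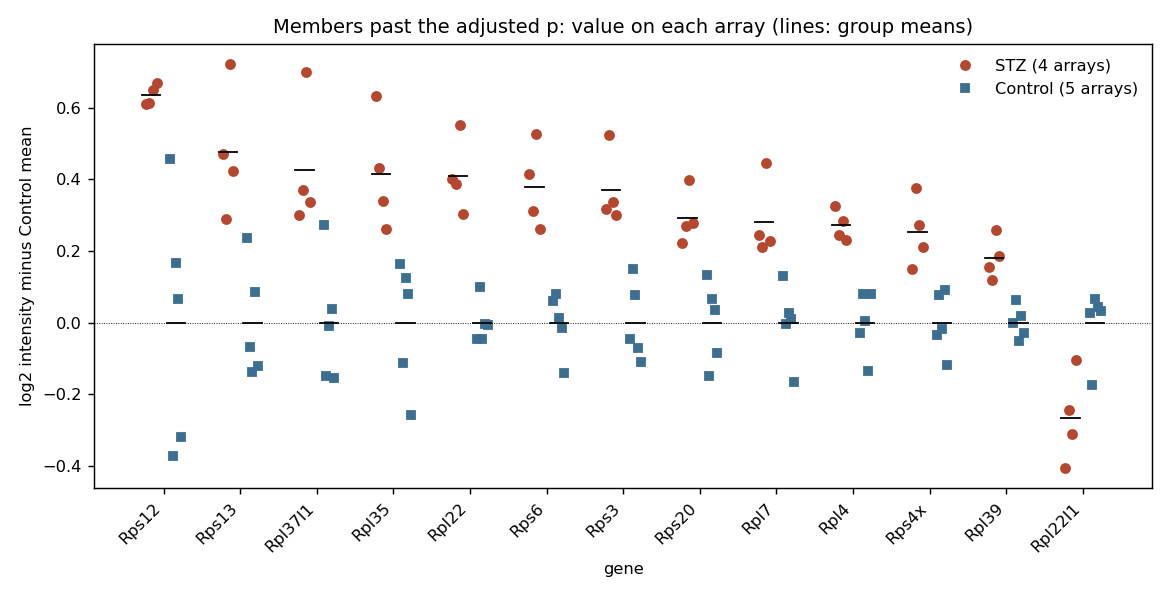
Log2 intensity minus the control mean is shown on the vertical axis for each array (circles, 4 STZ; squares, 5 Control; lines, group means) of the 13 members that passed. For 12 genes every STZ array lies above every Control array, and for Rpl22l1 STZ 4 and Control 2 overlap.

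Beside the 12 members that rose, 3 had groups that did not overlap without passing the test, namely Rpl13a, the stalk protein Rplp1 and Rps18. Rps18, at the top of the small subunit head, measured 13.80, 13.78, 14.14 and 13.86 in STZ 1 to 4, and 13.56, 13.68, 13.66, 13.71 and 13.56 in Control 1 to 5 (difference 0.26, adjusted p = 0.0659). STZ 3 stood above the other diabetic arrays. The next members by adjusted p were Rpl36 (difference 0.16, adjusted p = 0.0639), Rpl27a (0.20, adjusted p = 0.0679) and Rpl35a (0.28, adjusted p = 0.077), with higher means in diabetic retina and overlapping groups. These 4 were named after their values were seen. In all, 27 members were higher and 1 lower at an unadjusted p under 0.05, against 1109 higher (10.8%) and 1483 lower (14.5%) of all tested probes. The SD of the 5 control arrays' medians was 0.03 for the large and 0.07 for the small subunit, beside median differences of 0.13 and 0.16.

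The list of paralogs held genes for ribosomal proteins that exist in several forms. Of 4 tested, Rps4x rose and Rpl22l1 fell, where 4.84% of all tested probes were higher and 4.47% lower. Rps4x was the only one with a difference above 0. Rpl22l1, Rpl7l1 and Rpl3l had differences of -0.27, -0.13 and -0.02. Rpl36al1 was not in this list and was higher by 0.16 without passing limma's test (adjusted p = 0.124). Rps4x is the X-linked gene for Rps4 and averaged 13.76 ± 0.10 in diabetic and 13.51 ± 0.09 in control retina (SD, n = 4 and 5, difference 0.25, adjusted p = 0.0314). Rpl22l1 is the paralog of Rpl22, which in the mouse is known to hold down Rpl22l1 expression. It measured 7.47, 7.64, 7.57 and 7.78 in STZ 1 to 4, and 7.91, 7.71, 7.95, 7.92 and 7.91 in Control 1 to 5. It fell by 0.27 on the log2 scale (SE 0.07, adjusted p = 0.0482), with STZ 4 above Control 2. This call, the only lower one among the members, was lost with an offset of 50 (adjusted p = 0.0501), with cyclic loess (adjusted p = 0.0915) and with the BeadChip block (adjusted p = 0.151). Adjusted p ranged from 0.0242 to 0.278 over 21 alternatives, of which 5 passed. The probe was dim, since the lowest detected values on the arrays were 7.04 to 7.05.

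The remaining paralogs did not pass. Rpl7l1, a factor of large subunit assembly, averaged 11.61 ± 0.14 in diabetic and 11.74 ± 0.09 in control retina (SD, n = 4 and 5, adjusted p = 0.31). Rpl3l, a form of Rpl3 known from striated muscle, averaged 7.44 ± 0.01 and 7.46 ± 0.09 (adjusted p = 0.85), close to the lowest detected values.

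The stalk proteins, which recruit the elongation factors, showed no call in 3 genes tested by limma or by the methods' t-test after adjustment, and 1 had an unadjusted p under 0.05. Rplp1 averaged 11.92 ± 0.11 in diabetic and 11.65 ± 0.16 in control retina (SD, n = 4 and 5, adjusted p = 0.0889), and its groups did not overlap. Rplp0, the base of the stalk, averaged 14.12 ± 0.06 and 14.16 ± 0.06 (adjusted p = 0.525), and was among the brightest members. Rplp2 averaged 7.21 ± 0.04 and 7.25 ± 0.09 (adjusted p = 0.597), near the lowest detected values. Rpl5 and Rpl11, which with their ribosomal RNA bind Mdm2 when assembly fails, were detected too rarely for a test: Rpl5 on 3 diabetic and 2 control arrays, Rpl11 on none.

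Dim probes made up part of the members near 0. Taking the mean over all arrays, 7 members lay under 8 on the log2 scale (Rpl15, Rps24, Rpl22l1, Rpl3l, Rpl31, Rps16 and Rplp2), with a median difference of -0.05. The other 52 had a median of 0.16, and all 12 members that rose were among them. In mammalian cells these mRNAs are abundant. Why the values of Rps16 and Rplp2 were low was not tested, and levels of different probes cannot be set against each other. Ribosomal protein genes also have many processed pseudogenes, and whether a probe also binds transcripts of a near-identical copy was not tested.

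Rpl30 and Rps9 behaved unlike all other members, since their arrays fell into 2 levels within both groups. Rpl30, a large subunit protein near the subunit interface, measured 8.71, 11.90, 9.20 and 11.91 in STZ 1 to 4, and 8.56, 11.54, 8.29, 8.32 and 11.54 in Control 1 to 5. High and low arrays occurred in each group. The difference of 0.78 was smaller than its SE of 1.04 (adjusted p = 0.704).

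Rps9, a small subunit protein at the body of the subunit, measured 7.54, 12.37, 11.60 and 7.36 in STZ 1 to 4, and 11.12, 11.30, 11.22, 7.26 and 11.10 in Control 1 to 5. The low arrays were STZ 1, STZ 4 and Control 4, near the lowest detected values. Of these, STZ 1 and Control 4 were also low for Rpl30, while STZ 4 was high for it. The fitted difference was -0.68 with an SE of 1.31 (adjusted p = 0.8). All 3 low arrays of Rps9 were on BeadChip 2, which also held 3 of the high arrays, and the low arrays of Rpl30 were on both BeadChips. A range above 2 on the log2 scale within both groups was found in 9 of 10261 tested probes (0.0877%), and 2 of the 9 were these members. Another of the 9, which has no gene symbol, was low on the same arrays as Rps9, with 8.15, 12.87, 12.06 and 8.005 in STZ 1 to 4, and 11.73, 11.86, 11.68, 7.81 and 11.74 in Control 1 to 5.

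**Figure D3:**
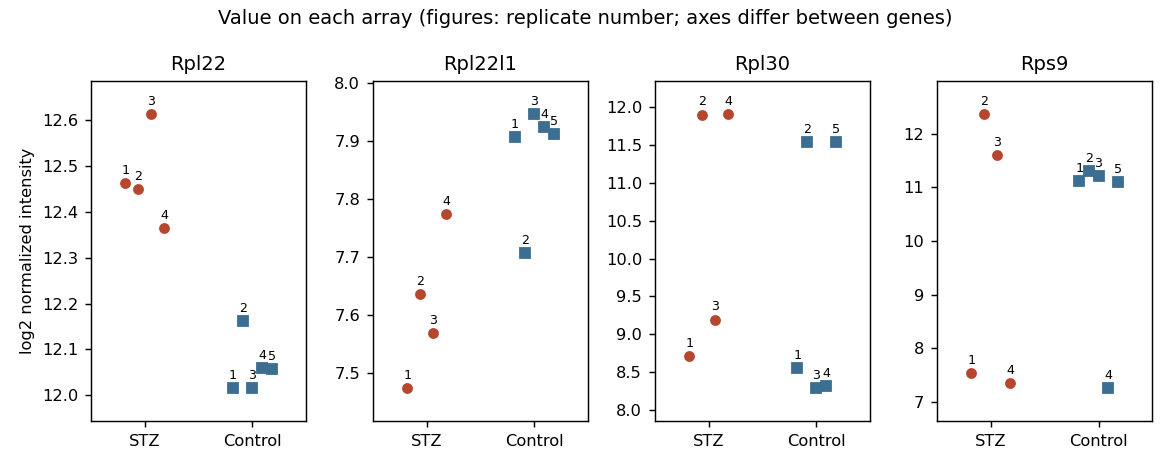
Log2 normalized intensity is shown for each array of STZ (left, circles) and Control (right, squares), with the replicate number beside each point, for Rpl22, Rpl22l1, Rpl30 and Rps9, on a separate vertical axis for each gene. Rpl22 separates the groups, Rpl22l1 overlaps between STZ 4 and Control 2, and Rpl30 and Rps9 each split into a high and a low level inside both groups.

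With quantile normalization some bright members differed little between the groups. Rps10, at the head of the small subunit, averaged 13.51 ± 0.05 in diabetic and 13.51 ± 0.09 in control retina (SD, n = 4 and 5, adjusted p = 0.999). Rps14, at the platform, averaged 13.73 ± 0.07 and 13.75 ± 0.04 (adjusted p = 0.792), and Rpl32 averaged 13.90 ± 0.08 and 13.87 ± 0.02 (adjusted p = 0.673). In Rps10, Rps14 and Rpl32 the group means were closer together than the larger SD of the 2 groups. The difference of Rps14 depended on the normalization. It was -0.02 here, 0.11 with median scaling and 0.12 with cyclic loess, and passed limma's test in neither alternative (adjusted p = 0.767 and 0.109). Rps10 and Rpl32 were picked after their values were seen.

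Ribosomal proteins whose symbols do not have the members' form were read from the same fit. Of 3 tested 1 rose and none fell, where 4.84% of all tested probes were higher and 4.47% lower. The one that rose was Rack1, the scaffold protein on the small subunit head that binds protein kinase C. It averaged 12.39 ± 0.12 in diabetic and 12.17 ± 0.04 in control retina (SD, n = 4 and 5, adjusted p = 0.0381). With the authors' processed values Rack1 did not pass limma's test (adjusted p = 0.0759). Rpsa, also known as a laminin receptor, averaged 13.83 ± 0.06 and 13.64 ± 0.13 (adjusted p = 0.127). Fau, whose product is made as a fusion with a ubiquitin-like protein, averaged 12.66 ± 0.07 and 12.61 ± 0.10 (adjusted p = 0.633).

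Mitochondrial ribosomal proteins, which translate the few mRNAs of the mitochondrial genome, did not share the direction of the cytosolic ones. Of 58 tested none rose and 6 fell, namely Mrpl47, Mrps30, Mrps18a, Mrpl58, Mrpl34 and Mrps24, where 4.84% of all tested probes were higher and 4.47% lower. At an unadjusted p under 0.05, 1 was higher and 9 were lower, against 10.8% and 14.5% of all tested probes, and with the methods' t-test after adjustment none was higher and 2 were lower. Their median difference was -0.05, and 17 differences (29.3%) were above 0, against 42.2% of all tested probes. Mrpl47 averaged 9.32 ± 0.07 in diabetic and 9.62 ± 0.08 in control retina (SD, n = 4 and 5, adjusted p = 0.0111), and Mrps30 averaged 10.56 ± 0.03 and 10.76 ± 0.07 (adjusted p = 0.0172). No test was made of the difference between the cytosolic and the mitochondrial list.

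**Figure D4:**
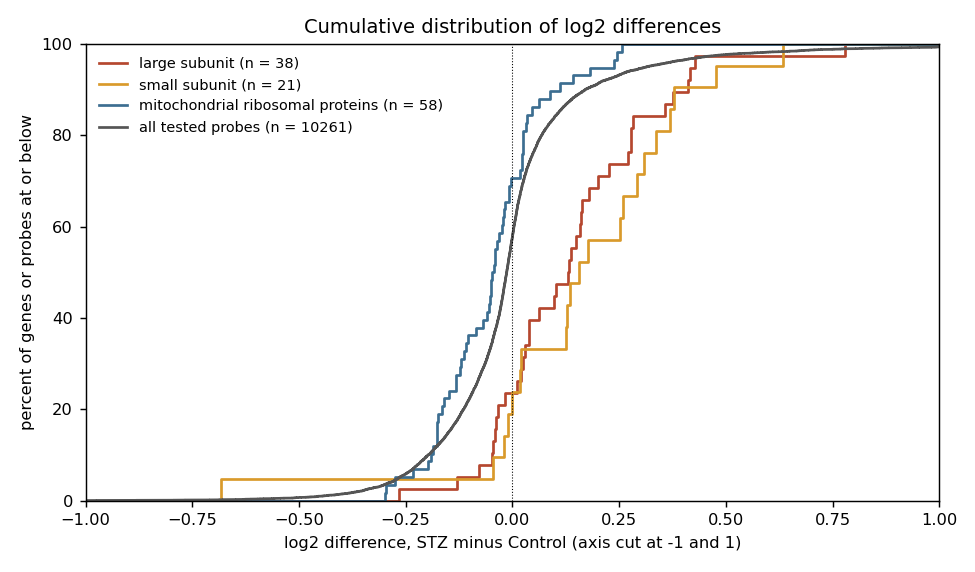
The curves give the percent of genes or probes (vertical axis) with a log2 difference, diabetic minus control, at or below the value on the horizontal axis, which is cut at -1 and 1. The large and small subunit curves lie right of that of all 10261 tested probes, with medians of 0.13 and 0.16 against -0.01, and the curve of 58 mitochondrial ribosomal proteins crosses the middle at -0.05.

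Other transcripts known to carry a TOP tract included several that were higher. Of 11 tested 4 rose, among them Rack1, and none fell, where 4.84% of all tested probes were higher and 4.47% lower. The median difference of the 11 was 0.20. This list is not separate from the others. Eef1a1, Eef1b2, Eef1d, Eef1g, Eef2 and Eif3h are also among the translation factors below, and Rack1 was already counted above. None had an unadjusted p under 0.05 in the lower direction, and none passed the methods' t-test after adjustment in either. Tpt1, which encodes a growth-related tumor protein, averaged 14.05 ± 0.15 in diabetic and 13.72 ± 0.08 in control retina (SD, n = 4 and 5, adjusted p = 0.026). Eef1g, a subunit of the exchange factor that recharges elongation factor 1, averaged 11.46 ± 0.21 and 10.90 ± 0.19 (adjusted p = 0.0262). The fourth was Naca, which shields new chains at the tunnel exit.

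Translation initiation and elongation factors, 26 of which were tested, gave 2 that rose (Eef1g and Eif5b) and 1 that fell, where 4.84% of all tested probes were higher and 4.47% lower. The median difference was 0.09, with 22 of 26 differences (84.6%) above 0. At an unadjusted p under 0.05 by limma, 8 were higher and 1 was lower, against 10.8% and 14.5% of all tested probes. None passed the methods' t-test after adjustment. The member that fell was Eef1a2, the form of elongation factor 1 alpha found in neurons and muscle, with 12.03 ± 0.22 in diabetic and 12.40 ± 0.07 in control retina (SD, n = 4 and 5, adjusted p = 0.0399). Eif5b, which joins the subunits, averaged 10.31 ± 0.36 and 9.74 ± 0.11 (adjusted p = 0.0487).

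Genes of ribosome assembly were centered near 0. Of 21 tested none rose and 1 fell, with a median of -0.001, where 4.84% of all tested probes were higher and 4.47% lower. At an unadjusted p under 0.05 by limma none was higher and 3 were lower, against 10.8% and 14.5% of all tested probes. None passed the methods' t-test after adjustment. Polr1b, the second largest subunit of RNA polymerase I, averaged 9.48 ± 0.17 in diabetic and 9.79 ± 0.07 in control retina (SD, n = 4 and 5, adjusted p = 0.0387). Nop58, a core protein of the particles that methylate ribosomal RNA, averaged 11.50 ± 0.07 and 11.71 ± 0.12 (adjusted p = 0.0815).

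Of 10 tested genes of mTORC1 and S6 kinase signaling, none passed by limma or by the methods' t-test after adjustment. At an unadjusted p under 0.05 by limma 1 was higher and 1 lower, against 10.8% and 14.5% of all tested probes. Tsc2, an inhibitor of mTORC1, averaged 9.15 ± 0.20 in diabetic and 9.47 ± 0.10 in control retina (SD, n = 4 and 5, adjusted p = 0.0654). Eif4ebp1, the inhibitor of cap-dependent translation that mTORC1 phosphorylates, averaged 9.40 ± 0.41 and 8.50 ± 0.56 (adjusted p = 0.105), the largest difference of its list. These are transcript levels and do not measure the activity of the pathway.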

How the data were processed

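RNA of 9 rat retinas was measured on RatRef-12 BeadChips (Illumina), 1 array per rat. The authors used GenomeStudio 1.0.6 to average bead signals, and deposited the resulting intensity values on a linear scale without normalization, each with a detection p-value. A second deposited table of intensity values had been quantile normalized by the authors and served as an alternative. Genome build and probe annotation are not given in the sources used here, and gene symbols are those of GEO's annotation of the array, which names 13192 of 22226 probes. The array number limits the precision.

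Background was corrected by normexp (offset 16), for which the detection p served to infer the negative controls, and intensities were quantile normalized and taken to log2 in R 4.3.3 with limma 3.58.1. Probes detected at p under 0.05 on all arrays of 1 group were fitted with group as the only term, with moderated variance, two-sided tests, Benjamini-Hochberg adjustment over all tested probes and a threshold of 0.05. The fit was tested on simulated data. Lists are described by counts and medians, with no test. Where several probes measure a gene of another list, the brightest stands for it. The methods' t-test, with its thresholds of 0.05 unadjusted and 1.2-fold, was an alternative, beside other backgrounds, normalizations, filters, BeadChip and replicate blocks and leaving out each array. Named genes are the 6 members of each subunit with the smallest adjusted p, the 3 largest and 3 smallest differences, the stalk and paralog members, and the 2 genes of each other list with the smallest adjusted p. Others were named after their values were seen. Members, lists and this rule were chosen with earlier results of these data known. Figures were drawn in Python 3.11.15 with matplotlib 3.10.9.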

Additional observations from a re-analysis of the deposited data

Results flagged for a closer look

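In 9 of 74 groups of arrays examined, 1 array stood apart from the rest of its group, with a gap to its nearest neighbour above Dixon's limit at 95%. Chance gives about 1 such group in 20. All values are log2 intensities. In the diabetic group STZ 3 was high for Rpl7 (12.10, nearest 11.90), STZ 2 was high for Rps3 (12.76, nearest 12.57) and STZ 1 was low for Rpl7l1 (11.40, nearest 11.67). STZ 4 was low for Eif4ebp1 (8.78, nearest 9.58). In the control group Control 2 was low for Rpl22l1 (7.71, nearest 7.91) and high for Rack1 (12.23, nearest 12.17) and Eef1a2 (12.52, nearest 12.39). Control 4 was low for Rps9 (7.26, nearest 11.10) and high for Rplp2 (7.42, nearest 7.24).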

How the results depend on the processing

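The medians of both subunits stayed above 0 under every alternative run, while the number of members called depended on the setting. With median scaling no member of either subunit passed (limma, 16 higher and 1 lower at an unadjusted p under 0.05), 77 probes passed in all, of which 87% were higher against 52% before, and the medians were 0.18 for the large and 0.26 for the small subunit. Cyclic loess gave medians of 0.19 and 0.27, 18 members higher and none lower (1 lower at an unadjusted p under 0.05), and 60.7% of all called probes higher. The authors' processed values and no background correction gave 12 higher and 1 lower each, and an offset of 50 gave 12 higher and none lower (1 lower at an unadjusted p under 0.05). Shares of all tested probes at an unadjusted p are not given for these alternatives. A detection p under 0.4 gave 3 calls in the large subunit, and no filter gave 3 and 2 calls, a large subunit median of 0.10 and 575 probes. The BeadChip block gave 1 and 2 calls of 179 probes, 70.4% of them higher, and within BeadChip 2 there were 0 and 0 calls of 11 probes. The medians of 0.16 and 0.26 are the same in both by construction, since BeadChip 1 held no diabetic array. Of the genes of other lists that the naming rule chose, none passed with the BeadChip block, where Mrps30 had the smallest adjusted p of them (0.0595). The methods' t-test after adjustment gave 3 and 2 calls of 535 probes. At the methods' thresholds without adjustment it gave 14 higher and 1 lower, and limma 15 and 1 (5.58% and 4.45% of all probes).

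Replicate numbers of diabetic and control arrays were not paired by the labels. Deviations of same-number arrays had correlations of -0.08, 0.16, -0.07 and 0.15. These values cannot show whether such arrays shared more than a number. With the replicate block 1 member of each subunit passed, Rpl13a and Rps3, of 246 probes, and STZ 2 alone correlated best with its own number.

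Leaving out 1 array gave 3 to 6 calls in the large and 2 to 5 in the small subunit, and 472 to 1016 among all probes. Without STZ 3 or Control 5, 5 members remained, and Rpl22, Rpl4, Rpl39, Rps3 and Rps6 passed in all 9 such fits, as did Mrpl47 and Mrps30. Eef1g and Tpt1 passed in 5, Eef1a2 in 3, Rack1 in 2 and Polr1b in 1. Signs turned in members that did not pass. Rps14 was 0.11 with median scaling, 0.12 with cyclic loess, 0.0052 without STZ 1 and, at its lowest, -0.045 without STZ 3. Rpl3l was 0.024 with median scaling, 0.0016 without Control 2 and, at its lowest, -0.052 without Control 1. Rps9 was 0.54 with the BeadChip block and within BeadChip 2, 0.05 without STZ 1, 0.10 without STZ 4 and, at its lowest, -1.58 without STZ 2. The cause was not tested. No member has more than 1 tested probe, so the mean of a gene's probes was not run.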
